A study of Mus musculus with 9 samples.

Results

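The 49 genes described here encode the proteins that license and fire replication origins, copy DNA at the fork, supply its nucleotides and control entry into S phase. They were taken from the deposited count table by symbol, and all 49 were found among its 53647 genes and had enough counts to be tested. Transcript levels came from poly(A) RNA sequencing of Hepa 1-6 cells, a mouse hepatoma line kept in culture, with 3 samples in each of 3 groups.

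Before a cell divides, the origin recognition complex, Cdc6 and Cdt1 load the ring of Mcm2 to Mcm7 onto DNA in G1 phase. The kinases Cdc7 and Cdk2 then turn these rings into active helicases together with Cdc45 and the GINS complex, and the polymerases follow. Cyclin D with Cdk4 and cyclin E with Cdk2 release E2F transcription factors from the retinoblastoma proteins, and E2F proteins bind many of the promoters of these genes. Hepatoma lines divide continuously, and transcripts of all of these genes were counted in every sample compared.

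The control samples carried a control guide, whose vector is not described. In the Usp5 knockout samples the deubiquitinase gene Usp5 had been targeted with a lentiviral CRISPR guide. In the Ythdf1 knockout samples Ythdf1, which encodes a reader of N6-methyladenosine in mRNA, had been targeted with CRISPR/Cas9 plasmids that also carry EGFP. The knockout lines were grown from single cells by dilution, and several clones were checked by immunoblot, but which clone gave which sample is not stated. A change in a knockout group can therefore also be a trait of the clone or of the vector, and these cannot be told apart from the loss of the gene. The study asked which expression changes, above all in immune genes, the losses of the 2 proteins share; the replication genes were not its stated subject.

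Stretches of promoter are shown for 5 genes on which the results turn: the genes that differed most in each knockout (E2f2, Orc1 and Cdc7), one that was higher in both (Cdk2) and one that moved in opposite directions (Cdc45). Each is the 150 bases before an annotated start, 5′ to 3′ on the strand of the gene, from the RefSeq promoter windows of build GRCm38.p6. Capitals mark an E2F core (the letters TTCCCGC or else TTGGCGC or else TTCGCGC or else TTGCCGC) or a CCAAT box on either strand.
E2f2: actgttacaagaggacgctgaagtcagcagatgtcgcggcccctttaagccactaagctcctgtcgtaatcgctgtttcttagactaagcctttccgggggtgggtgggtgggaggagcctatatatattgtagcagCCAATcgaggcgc
Orc1: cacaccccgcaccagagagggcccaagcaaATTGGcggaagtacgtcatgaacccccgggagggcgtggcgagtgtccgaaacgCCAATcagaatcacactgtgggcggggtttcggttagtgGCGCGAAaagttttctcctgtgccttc
Cdc7: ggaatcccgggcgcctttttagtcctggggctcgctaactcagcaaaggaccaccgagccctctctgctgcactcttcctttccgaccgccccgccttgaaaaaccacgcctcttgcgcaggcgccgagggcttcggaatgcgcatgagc
Cdk2: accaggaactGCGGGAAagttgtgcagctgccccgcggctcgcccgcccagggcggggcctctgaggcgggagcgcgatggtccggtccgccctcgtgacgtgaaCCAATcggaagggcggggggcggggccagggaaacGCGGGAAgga
Cdc45: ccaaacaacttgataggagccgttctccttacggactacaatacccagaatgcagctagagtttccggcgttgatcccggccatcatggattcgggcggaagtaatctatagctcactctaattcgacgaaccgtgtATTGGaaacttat
The stretches lie at chr4:136172124-136172273 (plus strand) for E2f2, chr4:108579304-108579453 (plus strand) for Orc1 and chr5:106964172-106964321 (plus strand) for Cdc7. Those of Cdk2 and Cdc45 lie at chr10:128705052-128705201 and chr16:18811973-18812122, both on the minus strand. Orc1 held 1 E2F core, starting 27 bases before the start site, and 2 CCAAT boxes. Cdk2 held 2 E2F cores and 1 CCAAT box, while E2f2 and Cdc45 each held 1 CCAAT box and no E2F core in the stretch. Cdc7 held neither; in the first windows of Cdc7 and of E2f2, the 1 E2F core lay after the start and is not printed.

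Over whole windows, which run from 250 bases before to 50 bases after a start, 40 of the 49 genes were matched by symbol, with 50 windows. Ccnd1, Ccne2, Gins1, Gins2, Gins4, Mcm4, Pole, Prim2 and Rfc2 were not matched. An E2F core was found in 30 of the 50 windows (60%), against 9.57% of all 32851 windows in the RefSeq promoter set. That set was neither limited to tested genes nor matched to the 49 genes in expression or base composition. A CCAAT box was found in 62% against 37.4%, and the GC box letters GGGCGG, on either strand, in 70% against 35.7%. The letters TTTGAA, the core of the cell cycle homology region, were found in 18% against 17.9%. Motifs were counted where they overlapped. Genes of every call held an E2F core: among matched genes, 5 of 10 that rose, 10 of 15 that fell and 11 of 15 that did not pass in the Ythdf1 knockout held one. For the Usp5 knockout these counts were 4 of 6, 2 of 3 and 20 of 31. These matches are letters in a window and not measured binding sites.

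The libraries held between 24760877 and 42989715 counts, and the 49 genes took 0.737% to 0.827% of them in every library. Usp5 was at 184 to 234 CPM (counts per 1000000 counts of the library, TMM-scaled) in control and 110 to 123 in the Usp5 knockout, and Ythdf1 was at 181 to 195 CPM in control and 45.7 to 49.9 in its knockout, without overlap. A guide need not remove the transcript. The marker values that follow are CPM without TMM scaling. The hepatoma markers Alb, Afp, Trf, Krt8, Krt18 and Hnf4a were each at 217 CPM or more in every library, while Apoa1 and Ttr, abundant in normal hepatocytes, stayed at or under 1.21. Of other cell types, Cd3e, Emcn and Lrat had 0 counts throughout and Ptprc reached 0.252 CPM. Others on the same lists were detected: the leukocyte markers Cd68 (3.11 to 8.18 CPM) and Lyz2 (up to 1.58), and the endothelial marker Pecam1 (up to 0.917). Of the stellate cell markers Dcn was abundant (916 to 1440 CPM), while Acta2 stayed at or under 0.108. The summed bile duct list was higher in the Usp5 knockout (700 to 803 CPM) than in control (496 to 523) or the Ythdf1 knockout (396 to 435). Its genes disagreed in the Ythdf1 knockout. Spp1 was lower there than in control (147 to 173 against 270 to 292 CPM), while Epcam was higher (16.8 to 17.7 against 6.22 to 7.02). The part of these genes in the results was not tested. Control replicate 3 differed from the other controls: it had the fewest counts, 5.91% of them mitochondrial against 2.32% and 2.33%. The knockout libraries had 3.51% to 6.14%. In these bulk samples fewer cells in a phase and less RNA per cell cannot be told apart.

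The genes were expressed above most others. Per kilobase of gene length, the median gene stood at 42.6 CPM per kilobase in control, against 8.68 for all tested genes. Below that median of all genes lay E2f2 (2.03), Cdc7 (3.99), Gins3 (4.84), Pola1 (5.56) and Orc1 (7.96), and the highest was Cdk4 (501), followed by Ccnd1 (221), Mcm7 (216) and Pcna (188). The median coefficient of variation across the 3 samples of a group was 6.96% in control, 6.95% in the Usp5 knockout and 4.38% in the Ythdf1 knockout, against 12.3%, 10.5% and 8.71% for all tested genes.

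The pathway did not move as a block in either knockout. In the Usp5 knockout, 7 of the 49 genes rose (Mcm4, Cdc45, Pold1, Rfc3, Dnmt1, Cdk2 and E2f1), 3 fell (Orc1, Rpa1 and E2f2) and 39 did not pass the test. That is 20.4% called, against 19.8% of all 13661 tested genes (9.96% higher and 9.8% lower). Of the same 49 genes in the Ythdf1 knockout, 11 rose and 17 fell, and 21 did not pass. That is 57.1% called, against 46.5% of all tested genes (23.7% higher and 22.8% lower). Called means an adjusted p under 0.05 in edgeR's quasi-likelihood test with Benjamini-Hochberg adjustment over all tested genes. Every adjusted p below is from that fit, except those given after a correction for GC content and length.

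Most differences were small. The median log2 fold change of the 49 genes was 0.07 in the Usp5 knockout and -0.07 in the Ythdf1 knockout, against -0.01 and 0.02 for all tested genes. Their median size regardless of sign was 0.17 and 0.29, below the 0.22 and 0.38 of all tested genes. At least a 2-fold called difference was seen for 1 gene in each knockout: E2f2 in the Usp5 knockout and Cdc7 in the Ythdf1 knockout. When libraries were scaled by their totals alone, the median of all tested genes shifted to -0.10 and -0.12, and the calls became 2 higher and 3 lower in the Usp5 knockout and 5 higher and 22 lower in the Ythdf1 knockout. Single libraries also weighed on the counts. The 7 and 3 calls in the Usp5 knockout became 13 and 5 without control replicate 3, and 8 and 5 without Usp5 knockout replicate 3. The 7 became 3 without control replicate 2 and 4 without Usp5 knockout replicate 1 or 2. The 11 genes called higher in the Ythdf1 knockout became 5, 6 and 5 without its replicates 1, 2 and 3. The samples of a group are not stated to be separate cultures, so the p-values reflect no more than sample-to-sample spread, possibly technical.

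**Figure D1:**
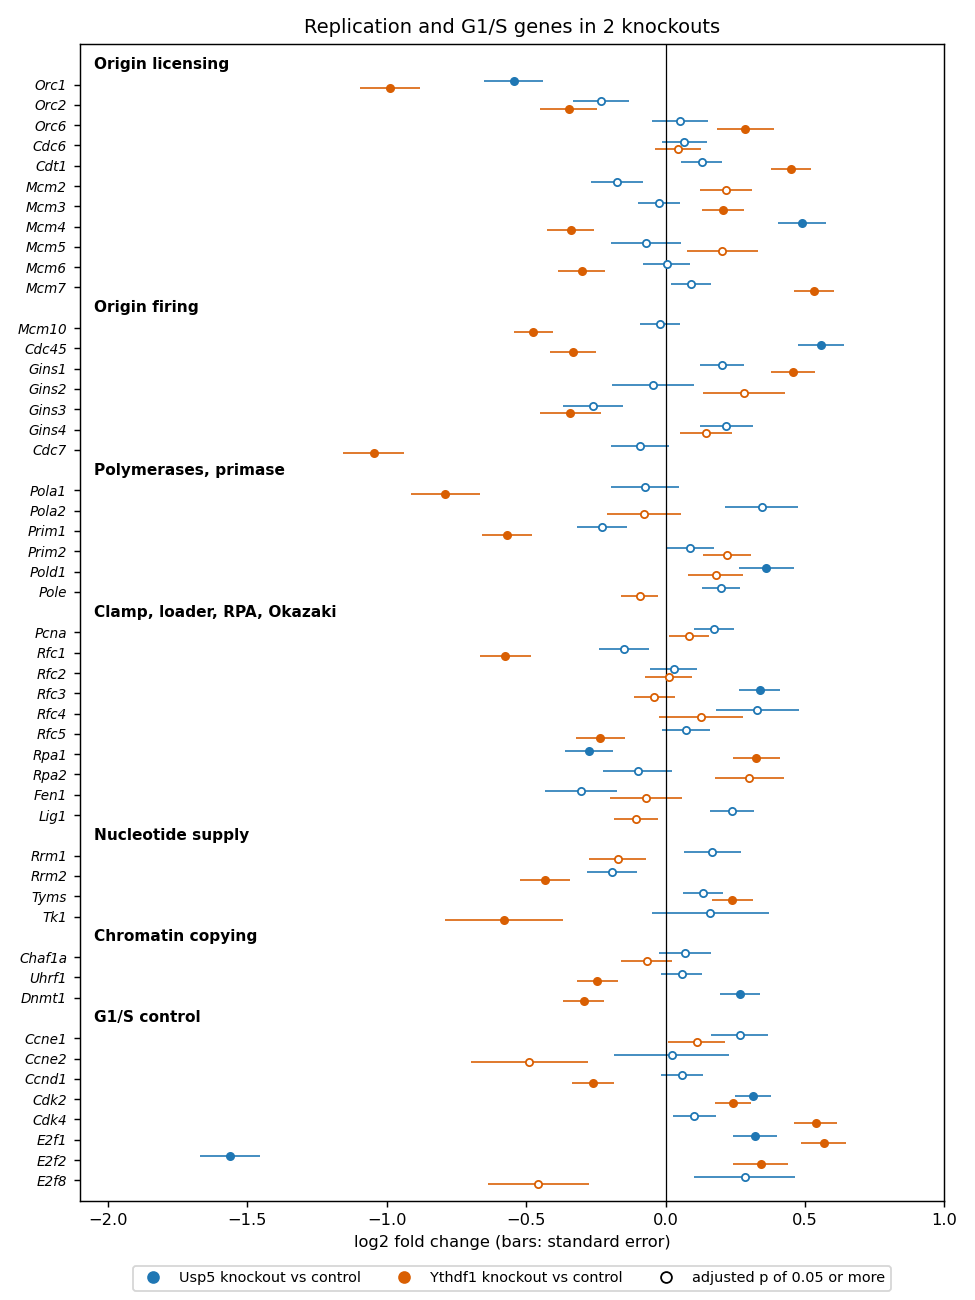
Log2 fold change of each of the 49 genes against control (x axis) in the Usp5 knockout (blue) and the Ythdf1 knockout (orange), by role, with bars of 1 standard error and filled points where the adjusted p is under 0.05. E2f2 at -1.56 in the Usp5 knockout and Cdc7 at -1.05 in the Ythdf1 knockout lie farthest to the left, and within most roles some genes lie on each side of 0.

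The comparisons against control share their 3 control samples, so the values of both knockouts are set side by side without a test of their likeness. Cdk2 and E2f1 were called higher in both knockouts and Orc1 lower in both. Mcm4, Cdc45 and Dnmt1 rose in the Usp5 knockout and fell in the Ythdf1 knockout, and Rpa1 and E2f2 did the reverse. The fall of Mcm4 and the rise of E2f2 in the Ythdf1 knockout were not called after the GC and length correction described below (-0.02, adjusted p = 0.791, and 0.22, adjusted p = 0.0545). A further 19 genes were called in neither, among them Pcna, Fen1, Lig1, Cdc6, Mcm2, Mcm5, Ccne1 and Rrm1.

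Among the 11 licensing genes, 1 rose and 1 fell in the Usp5 knockout, and 4 rose and 4 fell in the Ythdf1 knockout. The called shares were 18.2% and 72.7%, against 19.8% and 46.5% of all tested genes. Orc1, the largest subunit of the origin recognition complex, stood at 20.8, 22.6 and 20.6 CPM in control, 15.0, 13.0 and 15.9 in the Usp5 knockout, with 10.1, 11.8 and 10.4 in the Ythdf1 knockout. The 3 groups did not overlap, and the Ythdf1 knockout was lowest. Its log2 fold change was -0.54 ± 0.105 (SE, adjusted p = 0.00523) in the Usp5 knockout and -0.99 ± 0.107 (adjusted p = 7.54e-05) in the Ythdf1 knockout. Its level in the Usp5 knockout was higher than in the Ythdf1 knockout, by 0.44 ± 0.108 (adjusted p = 0.00686).

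Of the ORC subunits outside the 49 genes, Orc3, named after its values were seen, was at 19.8, 19.7 and 30.6 CPM in control and 12.4, 16.01 and 11.7 in the Ythdf1 knockout. It fell there by -0.80 ± 0.202 (adjusted p = 0.00868), while Orc4 (-0.16) and Orc5 (0.10) did not pass, and none of the 3 passed in the Usp5 knockout. Orc2, a core subunit, fell by 0.35 on the log2 scale in the Ythdf1 knockout, and Orc6, needed for loading the helicase, rose by 0.29. The call of Orc6 was lost in 11 of the 18 alternative fits. That of Orc2 was lost after the GC and length correction described below (-0.10, adjusted p = 0.464). Cdt1, the loader that is degraded once S phase starts, was at 150, 142 and 145 CPM in control, 159, 161 and 157 in the Usp5 knockout, with 207, 184 and 205 in the Ythdf1 knockout. All 3 Ythdf1 knockout samples lay above all others, and the gene rose by 0.45 ± 0.0723 there (adjusted p = 0.000726). After the same correction its log2 fold change was 0.13 (adjusted p = 0.188). Cdc6, its loading partner, differed little, at 0.07 and 0.04.

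The 6 subunits of the Mcm2-7 ring, which act in equal numbers, did not change together. Mcm4 was at 138, 144 and 164 CPM in control, 198, 219 and 209 in the Usp5 knockout, with 114, 125 and 114 in the Ythdf1 knockout. The Usp5 knockout samples were all above and the Ythdf1 knockout samples all below the controls. Its log2 fold change was 0.49 ± 0.0856 in the Usp5 knockout (adjusted p = 0.00304) and -0.34 ± 0.0858 in the Ythdf1 knockout (adjusted p = 0.00842), where the call was lost after the GC and length correction. Mcm7 stood at 472, 444 and 439.6 CPM in control, 493, 468 and 484 in the Usp5 knockout, with 656, 639 and 666 in the Ythdf1 knockout. Only its Ythdf1 knockout samples stood clear of the rest, with a log2 fold change of 0.53 ± 0.0714 (adjusted p = 0.000247).

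Of the remaining subunits, Mcm6 fell in the Ythdf1 knockout (-0.30) and Mcm3 rose (0.21), while Mcm2 (0.22) and Mcm5 (0.20) did not pass. The call of Mcm3 was kept in only 4 of the 18 alternative fits. These 4 subunits and Mcm7 lay between -0.17 and 0.09 in the Usp5 knockout, and none passed. Per kilobase, Mcm7 was the highest subunit in every group, with a mean of 216 ± 8.23 (SD, n = 3) in control and 313 ± 6.54 in the Ythdf1 knockout. Mcm4 was the lowest in every group, at 41.6 ± 3.70 in control, 58.4 ± 2.97 in the Usp5 knockout and 32.8 ± 1.74 in the Ythdf1 knockout. The gap between the highest and lowest subunit was therefore widest in the Ythdf1 knockout. That gap was not tested.

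**Figure D2:**
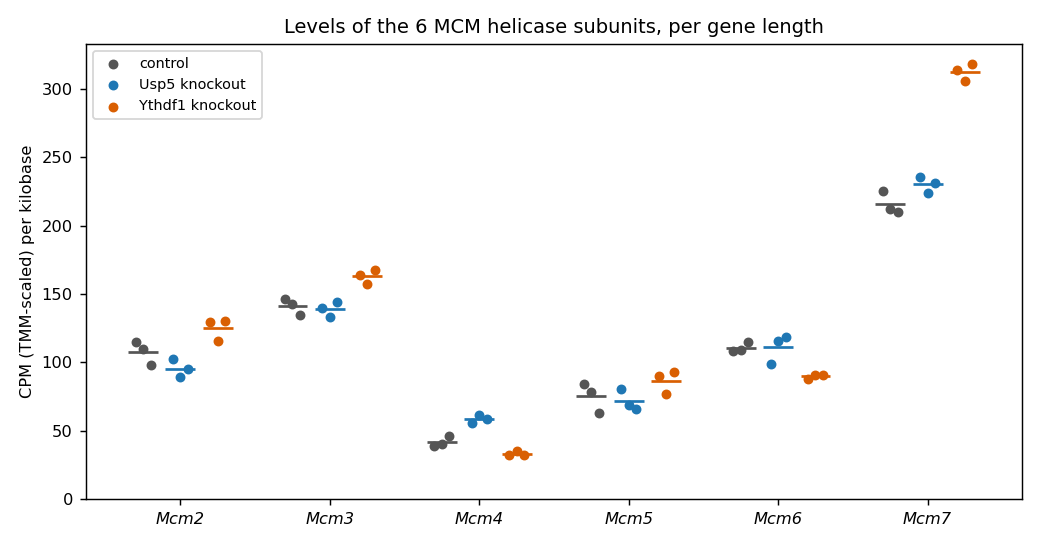
Levels of the 6 subunits of the Mcm2-7 helicase, as TMM-scaled CPM per kilobase of gene length (y axis, linear from 0), for control (grey), Usp5 knockout (blue) and Ythdf1 knockout (orange), with a point per sample and a line at each mean. Mcm4 is lowest in every group and highest in the Usp5 knockout, and the 3 Ythdf1 knockout points of Mcm7 lie above all others.

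Of the 7 genes for origin firing, 1 rose and 0 fell in the Usp5 knockout, and 1 rose and 4 fell in the Ythdf1 knockout. The called shares were 14.3% and 71.4%, against 19.8% and 46.5% of all tested genes. Cdc7, the catalytic subunit of the kinase that phosphorylates the Mcm ring, was at 11.0, 12.6 and 11.96 CPM in control, 10.9, 10.7 and 11.8 in the Usp5 knockout, with 5.63, 5.32 and 6.27 in the Ythdf1 knockout. The control and Usp5 knockout samples overlapped, and every Ythdf1 knockout sample was far below both. The log2 fold change was -1.05 ± 0.109 (adjusted p = 6e-05) in the Ythdf1 knockout and -0.09 ± 0.105 (adjusted p = 0.579) in the Usp5 knockout. The Usp5 knockout was higher than the Ythdf1 knockout by 0.95 ± 0.109 (adjusted p = 8.12e-05).

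Cdc45, which joins the Mcm ring as part of the active helicase, was at 38.5, 34.5 and 39.4 CPM in control, 56.2, 56.0 and 53.0 in the Usp5 knockout, with 31.4, 28.0 and 29.9 in the Ythdf1 knockout. As for Mcm4, the controls lay between the knockouts without overlap. Its log2 fold change was 0.56 ± 0.0821 (adjusted p = 0.00109) in the Usp5 knockout and -0.33 ± 0.0829 (adjusted p = 0.00826) in the Ythdf1 knockout. Both genes are on chromosome 16, whose genes are taken up below.

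Mcm10, a scaffold for polymerase alpha at origins, was at 66.4, 63.5 and 63.6 CPM in control, 64.1, 62.7 and 64.1 in the Usp5 knockout, with 48.3, 43.4 and 47.7 in the Ythdf1 knockout. Its fall of -0.47 ± 0.0711 (adjusted p = 0.000473) was seen in the Ythdf1 knockout, and in the Usp5 knockout its samples overlapped the controls (-0.02). Gins1, a GINS subunit, went the other way, at 27.2, 27.1 and 29.4 CPM in control, 30.4, 33.3 and 32.6 in the Usp5 knockout, with 38.4, 36.4 and 40.0 in the Ythdf1 knockout. It rose by 0.46 ± 0.0783 in the Ythdf1 knockout (adjusted p = 0.00105) and was at 0.20 in the Usp5 knockout (adjusted p = 0.0941). The other GINS subunits differed from Gins1: Gins3 fell in the Ythdf1 knockout (-0.34), and Gins2 (0.28) and Gins4 (0.15) did not pass.

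Among the 6 polymerase and primase genes, Pold1 rose in the Usp5 knockout, and Pola1 and Prim1 fell in the Ythdf1 knockout. The called shares were 16.7% and 33.3%, against 19.8% and 46.5% of all tested genes. Pola1, the catalytic subunit of polymerase alpha, was at 25.1, 31.0 and 27.2 CPM in control, 24.0, 27.2 and 28.0 in the Usp5 knockout, with 15.4, 18.6 and 14.2 in the Ythdf1 knockout. The Usp5 knockout overlapped the controls and the Ythdf1 knockout lay below both (-0.79 ± 0.124, adjusted p = 0.000631). Prim1, the catalytic primase subunit, was at 62.0, 66.8 and 63.7 CPM in control, 49.0, 53.7 and 61.7 in the Usp5 knockout, with 43.0, 44.2 and 42.7 in the Ythdf1 knockout. It fell by 0.57 ± 0.0904 on the log2 scale in the Ythdf1 knockout (adjusted p = 0.000677) and stood at -0.23 in the Usp5 knockout (adjusted p = 0.0996).

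The partner subunits of the same 4-part complex were not called lower with them: in the Ythdf1 knockout Pola2 stood at -0.08 and Prim2 at 0.22, and neither passed. After the GC and length correction described below, Pola2 stood at -0.26 ± 0.161 (adjusted p = 0.213), near the -0.36 ± 0.102 of Pola1. Prim2 was then called higher, at 0.37 (adjusted p = 0.00106). Pold1, the catalytic subunit of polymerase delta on the lagging strand, was at 154, 137 and 122 CPM in control, 191, 175 and 164 in the Usp5 knockout, with 164, 144 and 159 in the Ythdf1 knockout. The rise of 0.36 ± 0.100 in the Usp5 knockout (adjusted p = 0.0297) left the groups just clear of each other, and 7 of the 18 alternative fits lost it. Pole, of the leading strand polymerase, stood at 0.20 in the Usp5 knockout (adjusted p = 0.0624) and -0.09 in the Ythdf1 knockout.

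Of the 10 genes for the sliding clamp, its loader, the single-strand binding protein RPA and Okazaki fragment joining, 1 rose and 1 fell in the Usp5 knockout. In the Ythdf1 knockout 1 rose and 2 fell. The called shares were 20% and 30%, against 19.8% and 46.5% of all tested genes. Rpa1, the large RPA subunit, was at 237, 238 and 209 CPM in control, 190.0, 174 and 201 in the Usp5 knockout, with 288, 277 and 292 in the Ythdf1 knockout. The knockouts lay on opposite sides of the controls. Its log2 fold change was -0.27 ± 0.0844 (adjusted p = 0.0448) in the Usp5 knockout and 0.33 ± 0.0844 (adjusted p = 0.00967) in the Ythdf1 knockout. The first of these calls was lost in 10 of the 18 alternative fits, while the Usp5 minus Ythdf1 difference of -0.60 (adjusted p = 0.00029) was kept in all.

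The clamp loader subunits differed among themselves. Rfc1, the large subunit, was at 48.1, 55.1 and 55.0 CPM in control, 48.8, 42.8 and 50.9 in the Usp5 knockout, with 35.0, 36.0 and 35.2 in the Ythdf1 knockout, where it fell by 0.57 ± 0.0902 on the log2 scale (adjusted p = 0.000624). Rfc3, a small subunit, was at 83.4, 79.2 and 79.8 CPM in control, 103, 94.2 and 109 in the Usp5 knockout, with 77.7, 76.6 and 81.5 in the Ythdf1 knockout. All Usp5 knockout samples of Rfc3 were above the rest, with a log2 fold change of 0.34 ± 0.0744 (adjusted p = 0.0105). Rfc5 fell in the Ythdf1 knockout (-0.23), and Rfc2 lay at 0.03 and 0.01. Pcna, the clamp, stood at 0.17 and 0.09 without passing. Near-identical Pcna and Tyms pseudogene copies are listed in the table and can share reads with these genes, so their values are uncertain.

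None of the 4 nucleotide supply genes passed in the Usp5 knockout, where they lay between -0.19 and 0.17 and 19.8% of all tested genes were called. Calls in the Ythdf1 knockout made up 75% of them, against 46.5% of all tested genes. In the Ythdf1 knockout Rrm2, the small subunit of ribonucleotide reductase that peaks in S phase, was at 105, 99.0 and 106 CPM against 147, 151 and 121 in control. The groups did not overlap, and it fell by 0.43 ± 0.0900 on the log2 scale (adjusted p = 0.00302). Rrm1, the large subunit, stood at -0.17. Tk1, thymidine kinase, was at 68.2, 72.3 and 41.1 CPM in control, 78.1, 67.2 and 58.0 in the Usp5 knockout, with 44.8, 32.0 and 45.1 in the Ythdf1 knockout. Control replicate 3 lay within the range of the Ythdf1 knockout, and the called difference of -0.58 ± 0.211 (adjusted p = 0.045) was lost in 9 of the 18 alternative fits. Tyms, thymidylate synthase, rose by 0.24, a call also lost in 9 of them.

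Among the 3 genes for copying chromatin, Dnmt1, the maintenance DNA methyltransferase, moved in opposite directions. It was at 438, 410 and 458 CPM in control, 536, 518 and 519 in the Usp5 knockout, with 356, 353 and 358 in the Ythdf1 knockout, with no overlap between any groups. The log2 fold change was 0.27 ± 0.0725 (adjusted p = 0.0272) in the Usp5 knockout and -0.29 ± 0.0726 (adjusted p = 0.00771) in the Ythdf1 knockout. The call in the Usp5 knockout was lost in 9 of the 18 alternative fits. Uhrf1, which recruits Dnmt1 to newly copied DNA, fell in the Ythdf1 knockout (-0.24) and stood at 0.06 in the Usp5 knockout. Chaf1a, a subunit of the histone chaperone CAF-1, stood at 0.07 and -0.07 without passing.

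The largest difference of the whole pathway was in the 8 G1/S genes. E2f2, an activator E2F, was at 9.72, 9.66 and 9.46 CPM in control, 3.48, 3.29 and 2.97 in the Usp5 knockout, with 12.66, 12.02 and 11.86 in the Ythdf1 knockout. The samples of each group lay close together and far from the other groups. Its level in the Usp5 knockout was 33.9% of control (log2 fold change -1.56 ± 0.106, adjusted p = 6.6e-06), and all 18 alternative fits kept the call, between -1.65 and -1.50. The rise in the Ythdf1 knockout was smaller (0.34 ± 0.0990, adjusted p = 0.0169) and was lost in 6 of them. The Usp5 minus Ythdf1 difference was -1.90 ± 0.106 (adjusted p = 8.42e-07).

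E2f1, another activator, did not follow E2f2. It was at 80.3, 73.5 and 76.2 CPM in control, 97.5, 101 and 88.3 in the Usp5 knockout, with 116, 106 and 119 in the Ythdf1 knockout. All knockout samples were above all controls, by 0.32 ± 0.0802 (adjusted p = 0.0191) and 0.57 ± 0.0803 (adjusted p = 0.000336). The call in the Usp5 knockout was lost in 5 of the 18 alternative fits. E2f8, an atypical repressor that is itself an E2F target, stood at 0.28 and -0.46 and passed in neither knockout. It was higher in the Usp5 than in the Ythdf1 knockout by 0.74 ± 0.181 (adjusted p = 0.00725).

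Cdk2, the kinase partner of cyclin E, was at 110, 109 and 106 CPM in control, 129, 134 and 139.5 in the Usp5 knockout, with 125, 130 and 129 in the Ythdf1 knockout. Both knockouts lay above the controls, by 0.31 ± 0.0653 (adjusted p = 0.00771) and 0.24 ± 0.0653 (adjusted p = 0.0119), and overlapped each other. The call in the Ythdf1 knockout was lost in 5 of the alternative fits. Cdk4, the partner of cyclin D, was at 774, 750.5 and 785 CPM in control, 853, 781 and 848 in the Usp5 knockout, with 1152, 1062 and 1141 in the Ythdf1 knockout. It rose by 0.54 ± 0.0774 in the Ythdf1 knockout (adjusted p = 0.000365). Its cyclin Ccnd1 fell there, at 683, 653 and 705 CPM against 827, 810.1 and 809 in control (-0.26 ± 0.0756, adjusted p = 0.0166). Ccne1 and Ccne2, the E-type cyclins, passed in neither knockout, and Ccne2 ranged from 27.0 to 48.5 CPM among the controls alone.

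**Figure D3:**
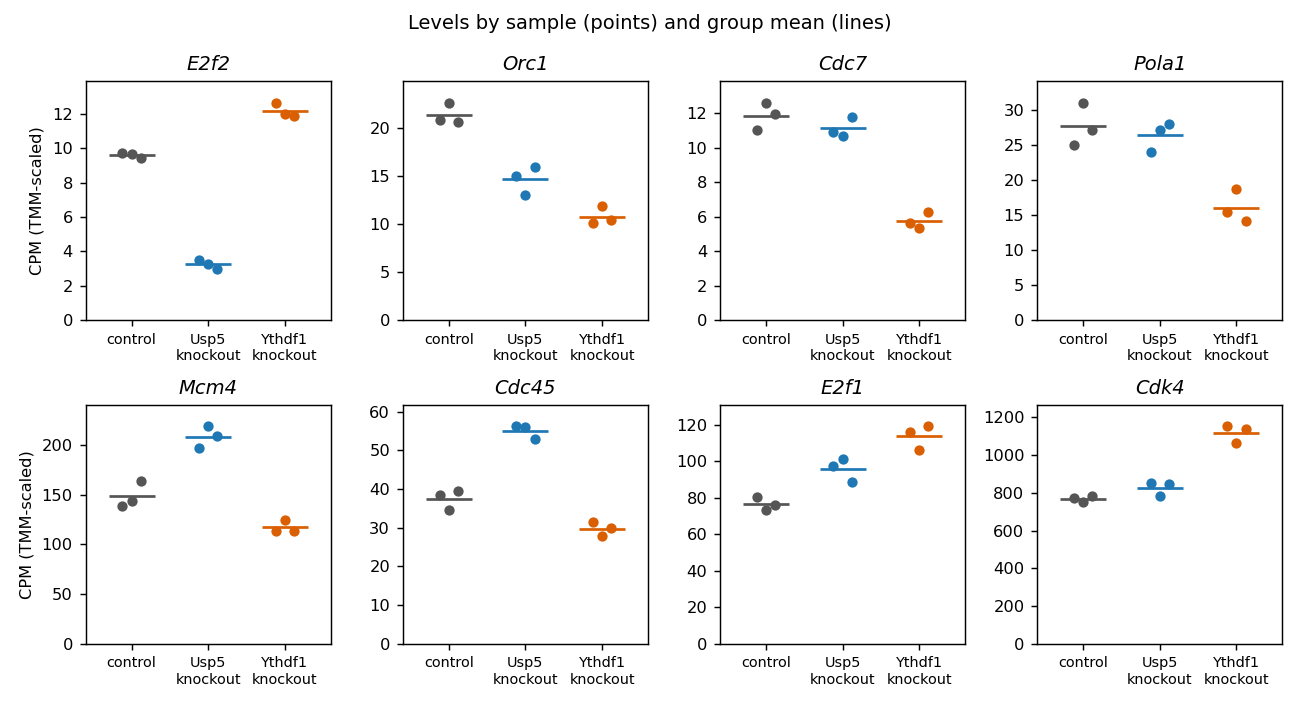
TMM-scaled CPM (y axes, linear from 0, each panel with its own range) of 8 genes in each sample, with a point per sample and a line at the mean of each group of 3. E2f2 drops to about 3 CPM in the Usp5 knockout, Orc1 is lower in both knockouts, Cdc7 and Pola1 are lower in the Ythdf1 knockout, and Mcm4 and Cdc45 lie on opposite sides of control.

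Compared directly, the knockouts differed in 31 of the 49 genes. Relative to the Ythdf1 knockout, 21 were higher and 10 lower in the Usp5 knockout. That is 63.3% called, against 48.5% of all tested genes (23.3% higher and 25.2% lower), and the median log2 difference was 0.15 against 0.00 for all tested genes. With libraries scaled by their totals alone the counts were 22 and 6, and the 10 lower became 6 without Usp5 knockout replicate 1 or without Ythdf1 knockout replicate 1 or 3. All 4 called polymerase genes, all 3 called nucleotide supply genes and both called chromatin genes were higher in the Usp5 knockout. Of these, Rrm1 (0.07, adjusted p = 0.401) and Rrm2 (0.17, adjusted p = 0.169) were not called after the GC and length correction described below. Across the 18 alternative fits the call of Rrm2 was kept in 9, and those of Rrm1 and Pola2 in 14 each. The licensing genes were divided, with 3 higher and 4 lower. Besides E2f2 and Cdc7, the largest differences were those of Cdc45 (0.89), Mcm4 (0.83), E2f8 (0.74), Tk1 (0.74) and Pola1 (0.71). Cdc45 and Mcm4 lie on chromosome 16, whose tested genes had a median of 0.51 in this comparison, with 61.9% called higher. Mcm10 (0.45), Dnmt1 (0.56) and Orc1 were also higher in the Usp5 knockout, and Mcm7 (-0.44) was lower.

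A further 77 genes of the same pathway were listed for context, of which 74 were tested. Loss of Usp5 went with 7 rises and 3 falls, and loss of Ythdf1 with 9 rises and 32 falls. Their median log2 fold changes were -0.00 and -0.21. Calls made up 13.5% and 55.4% of the 74 genes, against 19.8% and 46.5% of all tested genes. Of 34 further replication genes, 4 rose and 0 fell in the Usp5 knockout, and 6 rose and 14 fell in the Ythdf1 knockout. That is 11.8% and 58.8% called. Topbp1, which activates origins and the ATR kinase, was at 129, 141 and 156 CPM in control and 65.2, 71.9 and 64.3 in the Ythdf1 knockout (-1.08 ± 0.105, adjusted p = 4.09e-05). Dna2, a nuclease of Okazaki fragment processing, was at 21.2, 22.1 and 22.9 CPM in control and 10.6, 11.6 and 10.8 in the Ythdf1 knockout (-1.004 ± 0.0977, adjusted p = 4.07e-05). For both genes every Ythdf1 knockout sample lay below every control.

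Of 9 checkpoint genes, 1 rose and 1 fell in the Usp5 knockout, and 1 rose and 5 fell in the Ythdf1 knockout. That is 22.2% and 66.7% called, against 19.8% and 46.5% of all tested genes. Atr, the replication stress kinase, was at 20.5, 23.8 and 25.6 CPM in control, 10.4, 13.5 and 14.4 in the Usp5 knockout, with 9.77, 13.5 and 9.14 in the Ythdf1 knockout. Every knockout sample was below every control, by -0.87 ± 0.168 (adjusted p = 0.00526) and -1.11 ± 0.170 (adjusted p = 0.000552). Etaa1, another activator of ATR, fell in the Ythdf1 knockout (-0.96), and Rad9a, of the 9-1-1 clamp, rose in both (0.25 and 0.96). The GC content was 39% for Atr, 39.8% for Etaa1 and 55.6% for Rad9a. Fold changes of all genes in the Ythdf1 knockout followed GC content, as described below, and values of these 3 genes after correction are not given.

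Of 25 further G1/S regulators tested, 2 rose and 1 fell in the Usp5 knockout, and 1 rose and 12 fell in the Ythdf1 knockout. That is 12% and 52% called, against 19.8% and 46.5% of all tested genes. E2f7 (0.57) and E2f4 (0.45) rose in the Usp5 knockout. Of 6 CDK inhibitors tested, Cdkn2c, an inhibitor of Cdk4 and Cdk6, was at 41.2, 39.7 and 27.4 CPM in control, 20.7, 17.3 and 18.6 in the Usp5 knockout, with 21.4, 16.7 and 21.4 in the Ythdf1 knockout. It fell in both, by -0.94 ± 0.159 (adjusted p = 0.00249) and -0.87 ± 0.159 (adjusted p = 0.00152). Cdkn1a, which encodes the inhibitor p21, was at 173, 168 and 209.5 CPM in control, 161, 154 and 152 in the Usp5 knockout, with 329.5, 326 and 334 in the Ythdf1 knockout. It rose by 0.85 ± 0.0913 in the Ythdf1 knockout (adjusted p = 7.34e-05) and did not pass in the Usp5 knockout (-0.24, adjusted p = 0.0897). The Usp5 minus Ythdf1 difference was -1.09 ± 0.0918 (adjusted p = 1.23e-05).

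A list of 25 mitosis genes, which peak after S phase, was set beside the replication genes. Of these, 2 rose and 0 fell in the Usp5 knockout, with a median of 0.05. The Ythdf1 knockout had 1 that rose and 17 that fell, with a median of -0.49, against 11 and 17 and a median of -0.07 for the 49 replication genes. Bub1 (-1.23), Cenpf (-1.13) and Mki67 (-1.01), all genes of mitosis or of proliferating cells, had the largest falls. In the Usp5 and Ythdf1 knockouts 8% and 72% of the mitosis list were called, against 19.8% and 46.5% of all tested genes. The difference between the mitosis and replication lists was not tested.

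In the Ythdf1 knockout the fold changes of all genes followed the base composition of their transcripts. The median log2 fold change of all tested genes ran from -0.37 in the 20% of genes with the lowest GC content to 0.31 in the 20% with the highest. Relative to the control mean, the lowest 20% stood at -0.44 to -0.22 and the highest at 0.21 to 0.37 in the 3 Ythdf1 knockout libraries. In the controls the same medians ranged from -0.15 to 0.17 and from -0.11 to 0.10. The 11 replication genes that rose in the Ythdf1 knockout had a median GC content of 51.3% and the 17 that fell 47.8%. Across the 49 genes the fold change and GC content had a Pearson correlation of 0.474 and a Spearman correlation of 0.445, as a description of genes measured in the same libraries. For the Usp5 knockout these were -0.0538 and 0.0532.

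After smooth trends on GC content and gene length had been removed from each library, 9 of the 49 genes rose and 15 fell in the Ythdf1 knockout, and 42.4% of all tested genes were called. Of the 28 calls, 21 were kept in the same direction, 7 were lost (Orc2, Cdt1, Mcm3, Mcm4, Mcm6, Tyms and E2f2) and 3 were gained (Prim2, Pcna and Lig1). Tk1 (-0.85, from -0.58), Orc1 (-0.84) and Cdc7 (-0.79) were then the lowest. Pola1 went from -0.79 to -0.36, Cdk4 from 0.54 to 0.29 and E2f1 from 0.57 to 0.33, all still called, while Mcm4 went from -0.34 to -0.02 (adjusted p = 0.791). Mcm7 went from 0.53 to 0.43 and Gins1 from 0.46 to 0.41. The 74 other pathway genes then counted 10 higher and 27 lower, and the mitosis genes 0 higher and 14 lower with a median of -0.27. All 10 calls of the Usp5 knockout were kept and 5 were gained: Pole, Pcna, Lig1 and Rrm1 higher and Fen1 lower, with 26.3% of all tested genes called. Between the knockouts the counts became 20 higher and 5 lower, with 49% of all tested genes called. Of the calls between the knockouts, 9 were lost (Cdk4, Cdt1, E2f1, Gins1, Mcm3, Rfc1, Rpa2, Rrm1 and Rrm2).

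**Figure D4:**
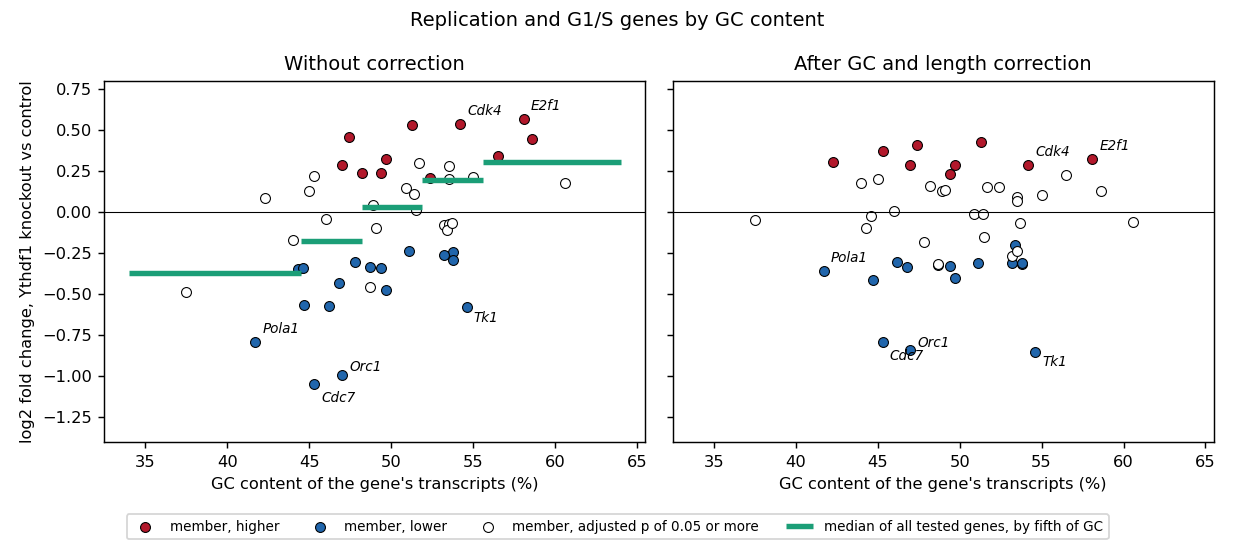
Log2 fold change of the 49 genes in the Ythdf1 knockout (y axis) against the GC content of their transcripts in percent (x axis), before (left) and after (right) correction for GC content and length. Red points are called higher, blue lower and white neither, and the green bars at left, the medians of all tested genes in 5 equal classes of GC content, climb from -0.37 to 0.31. At right Orc1, Cdc7 and Tk1 lie near -0.8, and Pola1 lies closer to 0 than at left.

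Chromosome 16 holds 3 of the 49 genes, Mcm4, Cdc45 and Rfc4, and its genes as a whole were shifted. Over its 404 tested genes the median log2 fold change was 0.29 in the Usp5 knockout, with 37.4% called higher and 1.98% lower. The medians of the other chromosomes lay between -0.11 and 0.05. In the Ythdf1 knockout the median of chromosome 16 was -0.14, close to the lowest of the other chromosomes, which lay between -0.118 and 0.155. Relative to the control mean, the chromosome 16 median stood at 0.27 to 0.34 in the 3 Usp5 knockout libraries, -0.16 to -0.14 in the Ythdf1 knockout and -0.03 to 0.06 in control. The lowest median of any other chromosome was at -0.153 to -0.105 in the Ythdf1 knockout libraries. The 20 tested genes nearest to Mcm4 had medians of 0.27 and -0.18 in the Usp5 and Ythdf1 knockouts, against 0.49 and -0.34 for Mcm4 itself. Those nearest to Cdc45 had 0.18 and -0.09, against 0.56 and -0.33, and those nearest to Rfc4 had 0.50 in the Usp5 knockout against 0.33. Of the other pathway genes, Chaf1b (0.75) and Donson (0.35), also on chromosome 16, rose in the Usp5 knockout. The part of the chromosome in these rises was not tested.

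Such a shift was not seen around E2f2 or Orc1, both on chromosome 4. The neighbours of E2f2 had a median of -0.07 in the Usp5 knockout, and those of Orc1 had 0.01 and 0.08 in the Usp5 and Ythdf1 knockouts. In the Usp5 knockout the neighbours of Cdk2 and of Pold1 stood at 0.27 and those of Rpa1 at -0.364, on the same side as these genes. In the Ythdf1 knockout the neighbours of Cdc7 stood at -0.46, those of Pola1 at -0.35 and those of Cdk4 at 0.40, on the same side of 0 as the genes themselves. The same held there for Orc2 (neighbours at -0.485), Mcm6 (-0.307) and Cdk2 (0.351). Other called genes differed in direction from their neighbours. Among them, Dnmt1, Rrm2, Uhrf1, Prim1, Rfc5 and Gins3 fell, with neighbours at 0.46, 0.19, 0.20, 0.12, 0.17 and 0.12. Whether these local medians bear on the genes beside them was not tested.

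**Figure D5:**
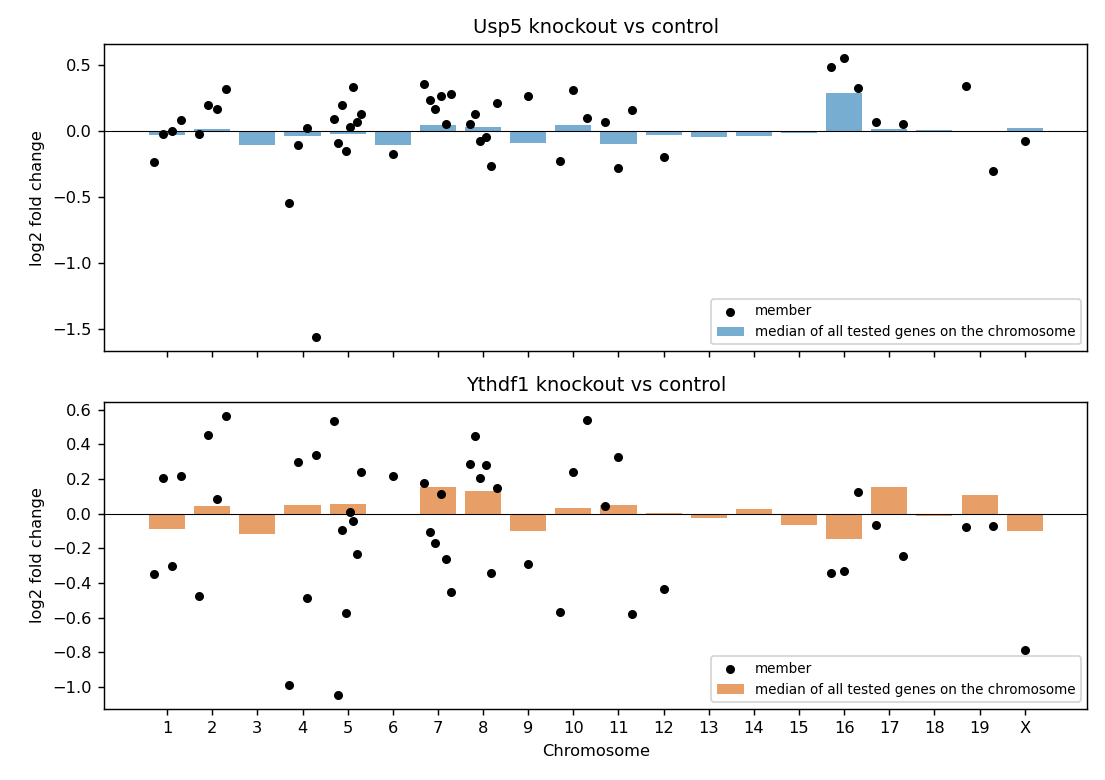
Log2 fold change against control (y axis) by chromosome (x axis) in the Usp5 knockout (top) and the Ythdf1 knockout (bottom), with bars for the median of all tested genes on a chromosome and black points for the 49 genes. The bar of chromosome 16 reaches 0.29 at the top, where Mcm4, Cdc45 and Rfc4 all lie above it, and E2f2 on chromosome 4 stands alone at -1.56.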

How the data were processed

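Poly(A) RNA sequencing covered 9 Hepa 1-6 samples. The authors deposited 1 table of estimated counts, written as whole numbers, with gene lengths. The submitters' processing notes name fastp 0.23.2, STAR 2.7.10a, Salmon 1.9.0 and GRCm39. The sources used here give neither the annotation release nor the use of strand, and overlapping genes and near-identical copies can share reads.

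The test was edgeR's quasi-likelihood test (edgeR 4.0.16, R 4.3.3) on counts scaled by TMM and filtered by filterByExpr, with group as the only term over all 9 samples. Of 53647 genes, 13661 were tested, with Benjamini-Hochberg adjustment over all of them. Libraries held 24760877 to 42989715 counts. CPM is TMM-scaled except for marker lists, and levels between genes use CPM per kilobase of the deposited length, a scale chosen after the data had been seen in place of a planned one without TMM scaling. GC content, chromosome and gene order came from a GRCm38 annotation matched by identifier (99.9% of tested genes). The GC and length correction used mgcv 1.9.3. The 49 genes, the context lists and the tests were chosen with earlier results of these data known. Genes were given in full by a rule: called genes, at most 12 with the largest change in a comparison, and those called in both knockouts; of the other pathway genes at most 6, and of mitosis 3, per comparison. The script was tested on simulated data. The 18 alternative fits were DESeq2 1.42.0, voom in limma 3.58.1, RLE scaling, scaling by library sizes only, no filter, a stricter filter, only the 2 groups compared, a replicate block, the GC and length correction, and leaving out each of the 9 samples.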

Additional observations from a re-analysis of the deposited data

How the results depend on the processing

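No gene reversed a call among the 49 under the 18 alternative fits. Calls kept in every fit numbered 4 of 10 for the Usp5 knockout (Cdc45, E2f2, Mcm4 and Orc1) and 14 of 28 for the Ythdf1 knockout; for the direct comparison they numbered 21 of 31. For the Usp5 knockout, the 7 genes called higher became 2 with library sizes alone, 4 with only the 2 groups compared, 11 with the GC and length correction and 3 at an adjusted p under 0.01. Leaving out 1 sample gave 3 to 13 (3 without control replicate 2, 13 without control replicate 3, 4 without Usp5 knockout replicate 1 or 2), and for the 3 called lower 2 to 5 (5 without control replicate 3 or Usp5 knockout replicate 3). For the Ythdf1 knockout, the 11 called higher became 5 with library sizes alone, 6 without a filter and 6 at an adjusted p under 0.01, and 5 to 12 when 1 sample was left out (5, 6 and 5 without Ythdf1 knockout replicates 1, 2 and 3). The 17 called lower became 10 at an adjusted p under 0.01 and 13 to 18 when 1 sample was left out. Between the knockouts, the 21 called higher ranged from 18 to 22 when 1 sample was left out. The 10 called lower became 6 with library sizes alone, 5 with the GC and length correction and 6 at an adjusted p under 0.01, and 6 to 14 when 1 sample was left out (6 without Usp5 knockout replicate 1 or Ythdf1 knockout replicate 1 or 3). The cause was not tested.

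Deviations from the group mean correlated between -0.257 and 0.298 for samples with the same replicate number. For samples with different numbers they correlated between -0.333 and 0.345. The labels do not say whether the numbers pair samples, and these correlations cannot decide it. With a replicate block the counts were 7 higher and 2 lower in the Usp5 knockout, 11 and 15 in the Ythdf1 knockout and 20 and 10 between the knockouts. All 49 genes passed the filter on low counts, and the lowest, E2f2, stood at 2.97 CPM or more in every library.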
